A study of Aspergillus niger with 16 samples.

Results

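*gaaD* (NRRL3_10050) is the Aspergillus niger gene of L-glyceraldehyde reductase, the enzyme of the last step of D-galacturonic acid (GA) catabolism. It is 1 gene of 11580 listed in any of the libraries, was found by the locus tag at the end of the gene identifier, and has a coding length of 1005 bases. It was chosen by its measured transcript level on pectin, which stayed high without the activator gene *gaaR*, so its levels in the deletion strain and its differences between strains are given as a description, without a test. For *gaaD*, only contrasts within the reference strain were tested. The choice was not made by these contrasts, but their libraries are also those that the deletion strain is compared with. Other genes were also tested between strains.

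RNA of mycelium was sequenced in 16 libraries, 2 for each of 8 groups. The groups were a reference strain (CBS 141257) and a strain lacking *gaaR* (ΔgaaR, CBS 141258), each placed on 25 mM GA for 2 h or on 1% sugar beet pectin (SBP) for 2, 8 or 24 h, after 16 h in complete medium with 2% fructose. Minimal medium of pH 6 was used at 30 °C and 250 rpm, and the labels give no further allele for either strain. Each strain is a single isolate, and nothing in the labels says that replicates were separate cultures, so a p-value here reflects how these 16 samples scatter and may hold technical variation only.

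GA is the chief building block of pectin's backbone. Once inside the cell it is reduced by GaaA to L-galactonate, dehydrated by GaaB, and cleaved by GaaC into pyruvate and L-glyceraldehyde, which GaaD reduces to glycerol. GatA is a transporter that takes up GA, GaaR is the activator of these genes and GaaX is a repressor that acts against GaaR. In A. niger the GaaD enzyme has also been described as an L-arabinose reductase, LarA, of the pentose pathway. Sugar beet pectin is rich in arabinan side chains besides its GA backbone.

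Libraries held 3203011 to 4574019 reads assigned to listed genes. The deleted gene *gaaR* had 176 to 1984 reads in reference libraries and 0 to 30 in ΔgaaR libraries, and all 8 of the latter lay below both reference libraries of the same condition in FPKM (reads scaled by gene length and library total). Both libraries of a group differed by more than sampling noise in each of the 8 groups, with chi-square values over genes of 6.33 to 38.84 per degree of freedom.

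With *gaaR* present, *gaaD* was among the most abundant transcripts of the fungus on GA and early on pectin. On GA at 2 h the reference libraries held 28210 and 28201 *gaaD* reads, or 8730 and 7479 FPKM. On SBP at 2 h they held 43020 and 45915 reads, or 11576 and 11249 FPKM. Ranked by FPKM, *gaaD* was the transcript of rank 2 and rank 1 in those SBP libraries, and of rank 5 and rank 10 on GA. It took up 1.16% of the reads assigned to genes in the first SBP library (95% Wilson interval 1.15 to 1.17%, which covers counting error only).

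The level then fell late on pectin. At 8 h the reference libraries had 7654 and 7493 FPKM, ranks 6 and 7, so both lay below both libraries of 2 h. At 24 h they had 396 and 847 FPKM, ranks 443 and 193, from 1767 and 3890 reads. These last libraries differed 2.14-fold, the widest gap between replicates of *gaaD* in any group, and both were still far below every library of 8 h.

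Without *gaaR* the level was low on GA, higher on pectin at 2 and 8 h, and low again on pectin at 24 h. On GA the ΔgaaR libraries held 2173 and 1602 reads, or 641 and 373 FPKM, at ranks 245 and 462. The second had the lowest share of *gaaD* reads of all 16 libraries, 0.0376% (95% Wilson interval 0.0358 to 0.0394%). On SBP at 2 h the same strain had 4325 and 3289 FPKM from 19073 and 12198 reads, at ranks 24 and 22 of 10536 and 10484 listed genes. At 8 h it had 1596 and 1273 FPKM, ranks 87 and 99, and at 24 h 404 and 414 FPKM, ranks 429 and 431. No ΔgaaR library reached a reference library of the same condition on GA, nor at 2 or 8 h on SBP, whereas at 24 h both ΔgaaR values lay between the reference values in FPKM. With TMM scaling, which the fit used, the ΔgaaR libraries of 24 h lay below both reference libraries, at 8.34 and 8.45 against 8.55 and 9.64 log2 CPM (log2 reads relative to the scaled library total).

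**Figure D1:**
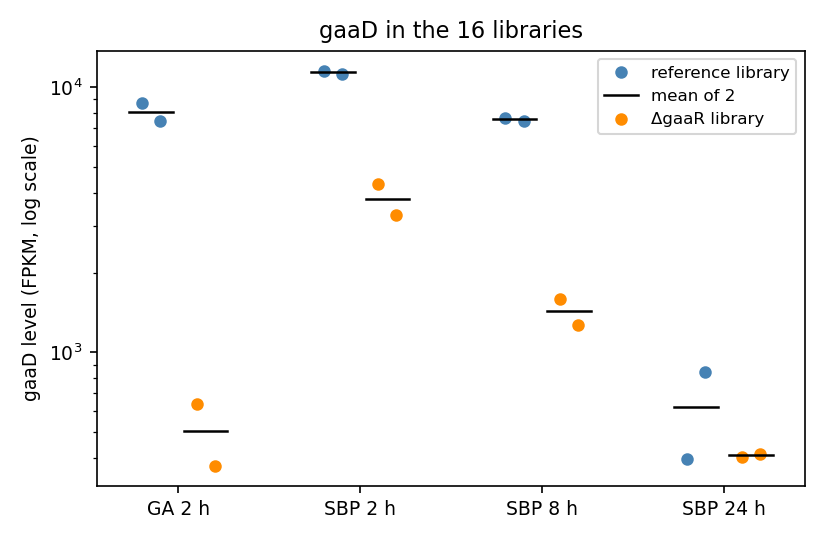
Level of *gaaD* in FPKM on a log scale, by condition and strain; each point is 1 library and each bar the mean of 2. ΔgaaR libraries reach 4325 and 3289 FPKM on SBP at 2 h against 641 and 373 on GA, and at 24 h they lie between the reference libraries on this scale (below both on TMM-scaled log2 CPM).

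Ordered by mean level (± SD, n = 2 throughout), the groups ran from the reference on SBP at 2 h (11412 ± 231 FPKM) through the reference on GA (8104 ± 884) and on SBP at 8 h (7573 ± 114) to ΔgaaR on SBP at 2 h (3807 ± 732) and 8 h (1435 ± 228). The reference on SBP at 24 h (621 ± 319), ΔgaaR on GA (507 ± 189) and ΔgaaR on SBP at 24 h (409 ± 7.75) came last. In FPKM, libraries of neighbouring groups overlapped in 3 places of this order: between the reference on GA and the reference after 8 h on SBP, and between each neighbouring pair of the last 3 groups. On TMM-scaled log2 CPM the first of these did not overlap (13.23 and 13.06 against 12.85 and 12.89), nor did the last 2 groups (9.24 and 8.76 against 8.34 and 8.45). Group means spanned 18.4-fold in the reference strain and 9.31-fold in ΔgaaR.

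Whether the polymer and the free sugar gave different *gaaD* levels was tested in the reference strain at 2 h. The level on SBP was 1.41 times that on GA in FPKM, and the log2 fold change was 0.45 (SE 0.33, 95% interval -0.26 to 1.15), which did not pass edgeR's quasi-likelihood test (adjusted p = 0.28). Both SBP libraries lay above both GA libraries. Of all genes tested 52.6% were called in this comparison, in either direction. The interval leaves room for a level on SBP more than 2-fold higher, so equal levels were not shown. Of the other 4 genes of GA uptake and catabolism 1 was called, *gaaA*, the gene of the first reductase of the pathway (0.79, SE 0.29, adjusted p = 0.032), and its call was lost whichever of the 4 libraries was left out, with adjusted p-values of 0.072 to 0.13. In the same comparison 27.3% of all genes were called higher.

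Between 2 and 8 h on SBP, *gaaD* in the reference strain had a log2 fold change of -0.72 (SE 0.33, 95% interval -1.43 to -0.02), which also missed the threshold (edgeR adjusted p = 0.095), with 40.5% of genes called in either direction. The call differed between fits, which differ in gene filter and scaling as well as in the estimate of the spread. A fit of only the 4 libraries compared gave -0.69 with an adjusted p of 0.0018, and DESeq2 gave -0.74 with 0.046. Replicates of *gaaD* were 1.03-fold apart at 2 h and 1.02-fold apart at 8 h. Of the other 4 genes *gaaA* was called lower (-0.87, SE 0.29, adjusted p = 0.026), where 19.5% of all genes were; this call was lost whichever of the 4 libraries was left out (adjusted p-values of 0.067 to 0.15), under total count scaling (0.069) and in limma on FPKM (0.078 and 0.086). Changes of *gaaB* (-0.41, SE 0.40), *gaaC* (-0.40, SE 0.34) and *gatA* (0.21, SE 0.32) were not called, though *gaaC* was when just these 4 libraries were fitted (-0.38, adjusted p = 0.046).

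Between 8 and 24 h *gaaD* fell by 3.68 on the log2 scale in the reference strain (SE 0.37, 95% interval -4.46 to -2.90, edgeR adjusted p = 8.2e-07). Of 10003 genes tested 215 had a lower log2 fold change; 44.9% were called in either direction and 21.4% were called lower. The whole pathway moved in this interval: the other 4 genes were all called lower, with a median of -4.03 against 0.05 over all genes. The fall of *gaaD* was close in size to those of *gaaA* (-3.77, SE 0.32) and *gaaC* (-3.59, SE 0.38), while *gatA* changed by -4.29 (SE 0.37) and *gaaB*, the gene of the dehydratase, by -5.60 (SE 0.49). *gaaX* was also lower (-1.96, SE 0.22, adjusted p = 2.4e-06), and *gaaR* itself was not called (0.48, SE 0.48, adjusted p = 0.44). The size for *gaaD* depended on the 24 h libraries, at -3.24 without replicate 1 and -4.33 without replicate 2. The comparisons of 8 h with 2 h and of 24 h with 8 h share the libraries of 8 h, and those of SBP with GA and of 8 h with 2 h share the libraries of SBP at 2 h.

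**Figure D2:**
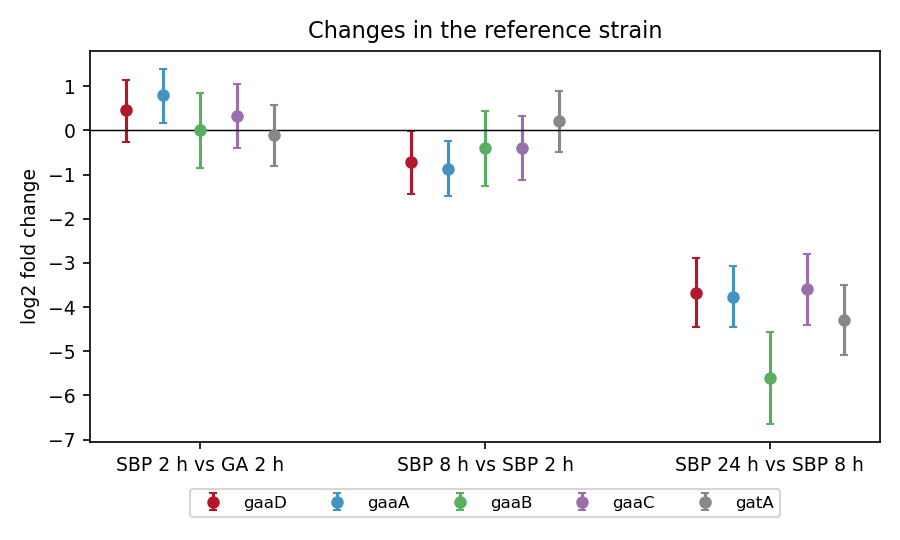
Log2 fold changes of 5 genes of GA use in the reference strain, with 95% intervals worked out from the F statistics of the edgeR fit (8 groups of 2 libraries). The intervals of *gaaD* include 0 for SBP against GA, end at -0.02 for 8 h against 2 h, and lie between -4.46 and -2.90 for 24 h against 8 h.

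How much of the *gaaD* level was left without *gaaR* is given next as a share of the reference mean. On GA 6.25% was left, with library to library ratios from 4.27 to 8.57%. The share was 33.4% on SBP at 2 h (28.4 to 38.4%), 18.9% at 8 h (16.6 to 21.3%) and 65.8% at 24 h (47.6 to 105%). It was thus larger at each time on pectin than on GA, and the ranges for GA and for each time on pectin did not overlap. Among genes with a reference mean of at least 1000 FPKM in the condition, the median share was also lowest on GA, at 35.6% (233 genes). On SBP it was 104% at 2 h (136 genes), 72.0% at 8 h (179) and 95.7% at 24 h (150). These sets of genes differ between conditions and were picked by the reference level that the share is divided by. Their medians thus cannot show whether the contrast was particular to *gaaD*. Of these genes, 21 kept a smaller share than *gaaD* on GA, 14 on SBP at 2 h and 41 at 8 h. The matching log2 fold changes of *gaaD* from the fit were -4.13 (SE 0.37) for GA and, for pectin, -1.56 (SE 0.34) at 2 h, -2.39 (SE 0.35) at 8 h and -0.80 (SE 0.33) at 24 h. The value at 24 h moved with the reference library of 847 FPKM: it was -0.15 without it and -1.24 without the other one. By the same measure the deleted gene *gaaR* had a share of 7.66% on GA (0.353 to 16.2%), from 30 and 1 reads. Its share on SBP was 0.319% at 2 h, 4.71% at 8 h and 0.0% at 24 h. A share like that of *gaaD* on GA was thus also read for an absent gene, and its source was not tested.

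The earlier genes of the pathway kept smaller shares. Their shares left on GA lay between 1.50% for *gatA* and 4.52% for *gaaA*, below that of *gaaD*, whose range overlapped those of *gaaA* and *gaaB* and not those of *gaaC* and *gatA*. On SBP at 2 h they lay between 0.971% for *gaaB* and 1.51% for *gaaA*, and at 8 h between 1.29% for *gaaC* and 2.83% for *gaaA*. At 24 h, when the reference level itself had dropped, they lay between 3.13% for *gatA* and 31.5% for *gaaB*. All 4 were called lower in ΔgaaR in each of the 4 conditions, where 23.5% of genes were called lower on GA, 7.21% on SBP at 2 h, 21.4% at 8 h and 15.8% at 24 h. At 24 h 44.3% of calls were higher, whereas total count scaling gave 57.5%, and limma gave 58.4% on log2(FPKM + 1) and 56.8% on log2(FPKM + 0.1).

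**Figure D3:**
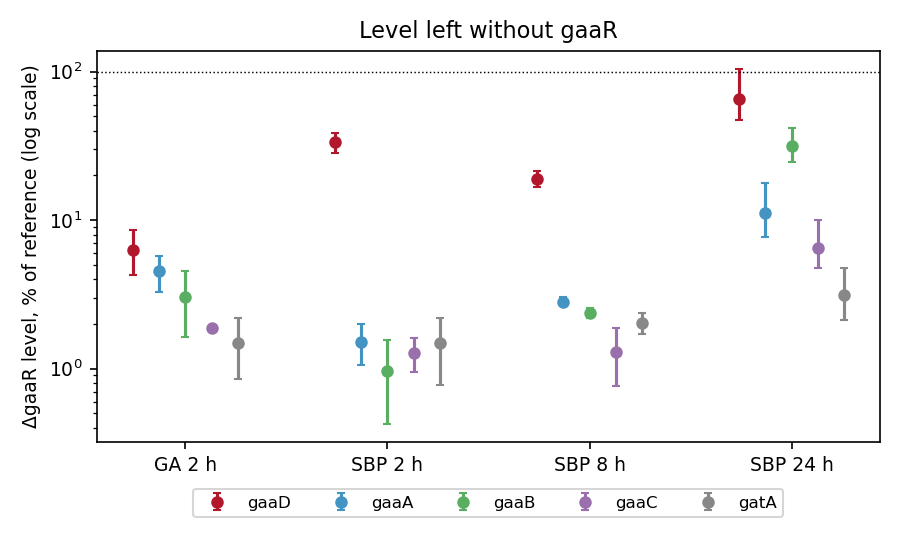
Mean FPKM in ΔgaaR as a percentage of the reference mean, on a log scale, for 5 genes of GA use in 4 conditions; whiskers run from the lowest to the highest ratio between single libraries and the dotted line marks 100%. *gaaD* keeps 33.4% on SBP at 2 h, where the other 4 keep 0.971 to 1.51%.

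Pectin and GA can also be compared within ΔgaaR. The *gaaD* level on SBP at 2 h was 7.51 times that on GA, a log2 fold change of 3.01 (SE 0.36). The gene was chosen by its level on pectin in this strain, so the size of this difference follows in part from the choice. The earlier genes had no value above 0 in this contrast, with log2 fold changes of -0.04 (SE 0.37) for *gatA*, -0.19 (SE 0.35) for *gaaC*, -0.70 (SE 0.30) for *gaaA* and -1.56 (SE 0.41) for *gaaB*. From 2 to 8 h *gaaD* in ΔgaaR had a log2 fold change of -1.55 (SE 0.34), a 2.65-fold lower mean FPKM, when *gaaB* had 0.97 (SE 0.41), *gatA* 0.74 (SE 0.36), *gaaA* 0.08 (SE 0.30) and *gaaC* -0.34 (SE 0.35). From 8 to 24 h its log2 fold change was -2.08 (SE 0.34), beside -1.98 (SE 0.31) for *gaaA*, -2.08 (SE 0.42) for *gaaB*, -1.46 (SE 0.36) for *gaaC* and -3.85 (SE 0.45) for *gatA*.

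On the linear scale the loss of *gaaD* in ΔgaaR was nearly the same on both carbon sources at 2 h. Reference minus ΔgaaR was 7598 FPKM on GA (SD of the difference 904) and 7605 FPKM on SBP (SD 768). Put the other way, SBP minus GA was 3308 FPKM in the reference strain (SD 914) and 3300 FPKM in ΔgaaR (SD 756). At 8 h the loss was 6139 FPKM (SD 255), and at 24 h it was 212 FPKM (SD 319), within the spread of the libraries. At 2 h *gatA* also lost about as much on both sources, 875 FPKM on GA (SD 48.6) and 837 FPKM on SBP (SD 9.31). So did *gaaB*, with 10965 FPKM (SD 673) and 11609 FPKM (SD 802). The losses of *gaaA* (2482 and 4579 FPKM) and *gaaC* (5552 and 7213 FPKM) were larger on SBP. FPKM is relative to the library total, and fewer expressing cells cannot be told apart from less RNA per cell in these bulk samples.

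*gaaD* therefore made up a different part of the pathway's transcripts in the 2 strains. Of the summed FPKM of *gatA* and the catabolic genes *gaaA* to *gaaD*, it held 26.5 to 39.4% in the reference libraries. In ΔgaaR it held 45.5 and 48.6% on GA. Its share on pectin in that strain was 96.0 and 89.2% after 2 h, 81.4 and 73.8% after 8 h, and 76.0 and 76.9% after 24 h. On this share the strains did not overlap in any condition. For pectin this follows in part from the choice of *gaaD* by its level there without *gaaR*. Set against *gaaB*, the level of *gaaD* per length was 0.942 and 1.01 times as high in the reference libraries on SBP at 2 h and 82.7 and 18.8 times in the ΔgaaR libraries. On GA the same ratio was 0.804 and 0.636 in the reference and 1.29 and 1.94 in ΔgaaR.

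**Figure D4:**
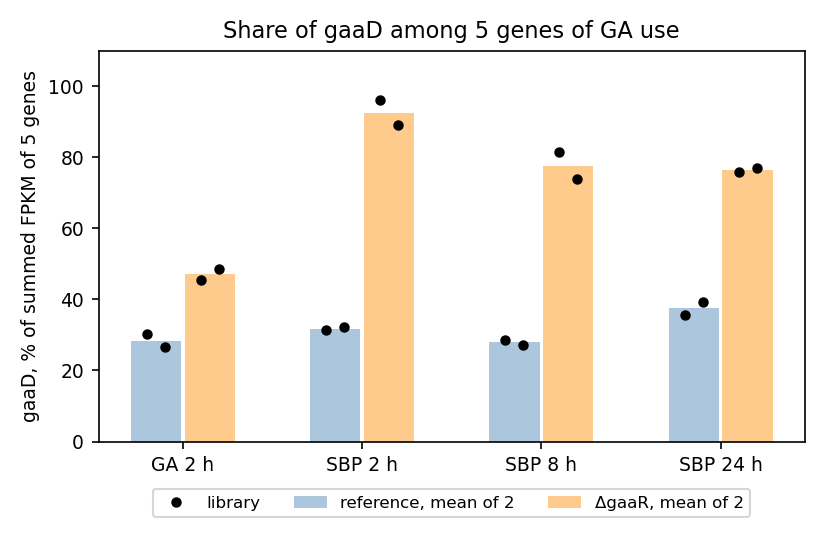
Percentage of the summed FPKM of 5 genes of GA use that belonged to *gaaD*, by condition and strain; points are libraries and bars the mean of 2. Reference libraries lie between 26.5 and 39.4%, and ΔgaaR libraries on SBP at 2 h at 96.0 and 89.2%.

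The ΔgaaR replicates on SBP at 2 h were ordered differently for *gaaD* than for the rest of the pathway. Replicate 1 was higher for *gaaD* (4325 against 3289 FPKM) and lower for *gaaA* (51.3 against 89.1 FPKM), *gaaB* (52.3 against 175 FPKM), *gaaC* (69.6 against 116 FPKM) and *gatA* (6.65 against 18.6 FPKM). Replicate 2 was also the one with *gaaR* reads, 12 against 0. On GA the ΔgaaR replicate with 30 *gaaR* reads had 641 FPKM of *gaaD* and the one with 1 read had 373 FPKM. The part of these reads in the levels was not tested. The log2 fold change of *gaaD* between strains on SBP at 2 h was -1.94 without replicate 1 of ΔgaaR and -1.26 without replicate 2. In the reference at 24 h the replicate with more *gaaD* was the higher one for all 5 genes, by 1.56-fold for *gaaB* to 2.14-fold for *gaaD*.

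Genes with a pattern like that of *gaaD* were ranked by Pearson correlation over the 8 group means of TMM-scaled log2 CPM, among 7085 other genes with a mean of at least 10 FPKM. The 8 points share libraries and depth, and the correlations are a description. They include the ΔgaaR groups on pectin, whose levels were used to choose *gaaD*. Its distance from the pathway genes, and the shares left among the genes most like it, are thus partly set in advance. The files do not pair tags with names, and none of the 10 most alike genes had a name here. The nearest were NRRL3_02121 (r = 0.972, group means spanning 2.91-fold) and NRRL3_01558 (r = 0.971, spanning 1.66-fold), both far flatter than *gaaD*, whose group means spanned 27.9-fold. The 10 had r of at least 0.929, and the share of the reference level left in ΔgaaR on SBP at 2 h ran from 47.4 to 90.4% among them. The pathway genes stood lower in this order, at rank 132 for *gaaA* (r = 0.837), 134 for *gatA* (0.836), 146 for *gaaB* (0.829) and 183 for *gaaC* (0.811). Of the 10 genes 5 were also among the 10 most alike over the 16 libraries, and 3 by Spearman correlation over the group means, so which genes come first depended on the measure.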

How the data were processed

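Total RNA from mycelium was sequenced in 16 libraries, grouped by the sample titles. Per the file headers, each deposited file gave 1 library's RSEM expected count and FPKM per gene with a gene length. The authors' expected counts were not normalized, and 548 of 168277 listed values (0.326%) were not whole. The FPKM values were scaled by the authors for length and library total, and lengths were multiples of 3 for 100% of genes (coding lengths). BWA, Bowtie2 and RSEM are listed in the submitters' processing notes, which give neither version nor role. An unlisted gene was taken as 0 reads. Between 10245 and 10857 genes were listed per library.

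Rounded expected counts of 10003 genes past filterByExpr were scaled by TMM and put through the two-sided quasi-likelihood F test of edgeR 4.0.16 (R 4.3.3). A single fit held all 16 libraries and a mean for each of 8 groups, with 8 residual degrees of freedom and a common dispersion of 0.0414. P-values were adjusted by Benjamini-Hochberg over all genes and called under 0.05. Alternatives were RLE and total count scaling, DESeq2 1.42.0, no filter, limma 3.58.1 on log2(FPKM + 1) and log2(FPKM + 0.1), only the libraries compared, a replicate block and each library left out. Ratios, ranks and plots used Python 3.11.15, numpy 2.4.6, scipy 1.17.1, pandas 2.3.3 and matplotlib 3.10.9.

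The gene, lists and tests were chosen with earlier results of these data known. Tags for *gaaA* (NRRL3_05650), *gaaB* (NRRL3_06890), *gaaC* (NRRL3_05649), *gatA* (NRRL3_00958), *gaaR* (NRRL3_08195) and *gaaX* (NRRL3_08194) were recalled from publications, as no table used here pairs tags with names. The named genes are these, *gaaD*, and of the 10 genes most like it those with a name and at most the 2 first without one. Sequences and genome positions were not used here.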

Additional observations from a re-analysis of the deposited data

How the results depend on the processing

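The log2 fold change of *gaaD* in the reference strain kept its direction under every alternative run: 0.39 to 0.50 for SBP against GA and -3.71 to -3.61 for 24 h against 8 h on the same side of the threshold, and -0.75 to -0.59 for 8 h against 2 h. The last was called when just the 4 libraries of that comparison were fitted (-0.69) and with DESeq2 (-0.74). With 1 library left out these ranges were 0.36 to 0.53, -4.33 to -3.24 and -0.74 to -0.70, with no call changed. Untested deletion effects on *gaaD* without 1 library ranged from -4.39 to -3.91 for GA and, for pectin, from -1.94 to -1.26 (2 h), -2.58 to -2.22 (8 h) and -1.24 to -0.15 (24 h). The ΔgaaR change from 8 to 24 h was -1.80 with total count scaling and with limma on either log2 scale. Counts of genes called on SBP at 2 h between strains went from 1456 to 736 when just its 4 libraries were fitted and to 572 to 1803 with 1 library left out (592 and 572 without reference replicate 1 or 2, 634 without ΔgaaR replicate 1); at 24 h the latter range was 1722 to 2405 against 2847, the lowest without ΔgaaR replicate 1. The cause was not tested.

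Replicate numbers did not pair the samples consistently: of 28 pairs of groups 4 had a correlation of replicate differences above 0.1 and 3 had one below -0.1. The strongest was negative, -0.355 between ΔgaaR on GA and ΔgaaR on SBP at 2 h, and the highest was 0.263. By the sign of each group's strongest correlation, 10 of 16 libraries went with their own number, where each group counts as 2 libraries. With a replicate block *gaaD* had 0.45, -0.72 and -3.67 in the 3 tests, with no call changed, and called genes moved from 5264 to 5278, from 4051 to 4101 and from 4487 to 4523. Total count scaling moved the median log2 fold change of all genes between strains from 0.09 to 0.20 on GA and from -0.02 to 0.18 at 24 h, in the reference from -0.02 to 0.11 between 2 and 8 h, and in ΔgaaR from 0.00 to 0.11 and from 0.01 to 0.29 between 2, 8 and 24 h. At its lowest *gaaD* still had 1602 reads.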

Other observations

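Among the 10 genes with tags nearest to that of *gaaD*, 5 on each side, 1 had a like pattern. NRRL3_10052, singled out after its values were seen and without a name here, was the ninth most alike of 7085 genes (r = 0.93 over 8 group means). Its reference libraries had 154 and 141 FPKM on GA, and 318 and 336 FPKM on SBP at 2 h. Those of 8 h had 174 and 133 FPKM, and those of 24 h 6.15 and 7.45 FPKM. In ΔgaaR it had 31.3 and 24.9 FPKM on GA, 202 and 108 FPKM on SBP at 2 h, 20.6 and 9.89 FPKM at 8 h, and 10.8 and 8.41 FPKM at 24 h. Its level in ΔgaaR was 19.0% of the reference mean on GA and, on SBP, 47.4% at 2 h, 9.92% at 8 h and 142% at 24 h, so that at 8 h, unlike *gaaD*, it kept less than on GA. Like *gaaD*, it was higher in replicate 1 of ΔgaaR on SBP at 2 h. The other 5 neighbours with a mean of at least 10 FPKM had r between -0.692 and -0.06, and the neighbours' levels never exceeded 336 FPKM.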
